A study of Mus musculus with 30 samples.

Results

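The T cell, NK cell and checkpoint genes are 40 genes that were chosen by name for the cells and functions they mark. They cover the T cell receptor complex, its coreceptors, other T cell surface and costimulatory proteins, proximal signalling proteins, cytotoxic effectors, NK cell receptors, transcription factors, activation and cytokine receptors, and immune checkpoint genes. A gene was taken where a probe set of the array carries its symbol alone, and of several probe sets the one with the highest mean over all mice was used. A value was found for 39 of the 40 genes, out of 17097 genes with a value in all, and Il2rg had none. All values are log2 intensity unless stated otherwise.

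Fresh-frozen, non-tumoral liver of 30 mice gave the RNA, which was hybridised to 1 Affymetrix array of type HT MG-430 PM per mouse. Of the mice on CD-HFD, a high-fat diet lacking choline that serves as a model of steatohepatitis (NASH) with hepatocellular carcinoma (HCC), 6 received aspirin with clopidogrel and 10 received sulindac, both given prophylactically. A further 9 mice on CD-HFD received vehicle, of which 4 had HCC with fibrosis and 5 had no HCC. The healthy group of 5 mice had a chow diet and is also labelled as vehicle-treated. Aspirin and sulindac inhibit cyclooxygenases, and clopidogrel blocks the platelet receptor P2Y12. The labels used here give no strain, sex, age, dose or batch. Whether mice in the drug groups had tumours is not stated in the labels, and each drug group is compared with all 9 vehicle mice. All drug mice have lower animal numbers in their titles than all vehicle and healthy mice, and the labels do not say why. A drug effect cannot be told apart from any other difference between these number ranges.

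T cells recognise antigen through the T cell receptor, which signals through the CD3 chains, and CD4 and CD8 mark helper and cytotoxic T cells. NK cells and cytotoxic T cells kill target cells with perforin and granzymes, and both cell types reside in normal liver. Checkpoint receptors such as PD-1 restrain activated T cells, and PD-L1, encoded by Cd274, is a ligand of PD-1 found on many cell types. In bulk tissue, fewer cells of a type and less RNA per cell cannot be told apart.

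Median intensity per array lay between 24.1 and 24.6 on the linear scale, and the lowest intensity on an array between 13.8 and 14.8. Correlations between arrays over all probe sets lay between 0.974 and 0.996. The hepatocyte genes Alb, Apoa1, Ttr, Cyp2e1 and Cps1 had means between 12.6 and 13.6, near the top of the array scale, as the tissue label implies. Over the brighter genes, 4 arrays were nearer the mean of the other group than that of their own when vehicle and healthy livers were compared: Hlth_1798, Hlth_1807, Veh_low_794 and Veh_low_1819. Comparisons that use these mice are also given without all 4. The 4 were picked by their values in the comparison of vehicle with healthy livers. Leaving them out therefore widens its differences by construction over the brighter genes as a whole, though not for each gene. Mice are named by the group part and animal number of their titles: AspClo, Sulin, Veh_high (vehicle with HCC), Veh_low (vehicle without HCC) and Hlth.

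Nearly all of these immune genes had array signals no higher than those of olfactory and vomeronasal receptor genes, sensory receptors that liver is not known to use. The 76 such receptor genes on the array had means between 4.06 and 5.06, and a mean at or below their 90th percentile, 4.57 or 23.7 on the linear scale, was called near background. By that measure 25 of the 39 genes lay near background. Another 13 lay above it but not above the highest receptor gene: Cd3e, Cd3g, Cd247, Tnfrsf9, Lat, Prf1, Gzmb, Gzmk, Nkg7, Klrk1, Eomes, Havcr2 and Cd274. Only Zap70, with a mean of 8.31, lay above every receptor gene. The other 38 genes had means between 4.20 (Cd69) and 5.04 (Tnfrsf9), and 4 of the 39 were no dimmer than the median gene, whose mean was 4.90. Probe sets differ in how strongly they bind, so these levels place each gene against background and do not rank the genes against each other. Of the 39 genes, 10 had more than 1 probe set, and the 16 probe sets not used had means between 4.14 and 4.52, all near background.

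**Figure D1:**
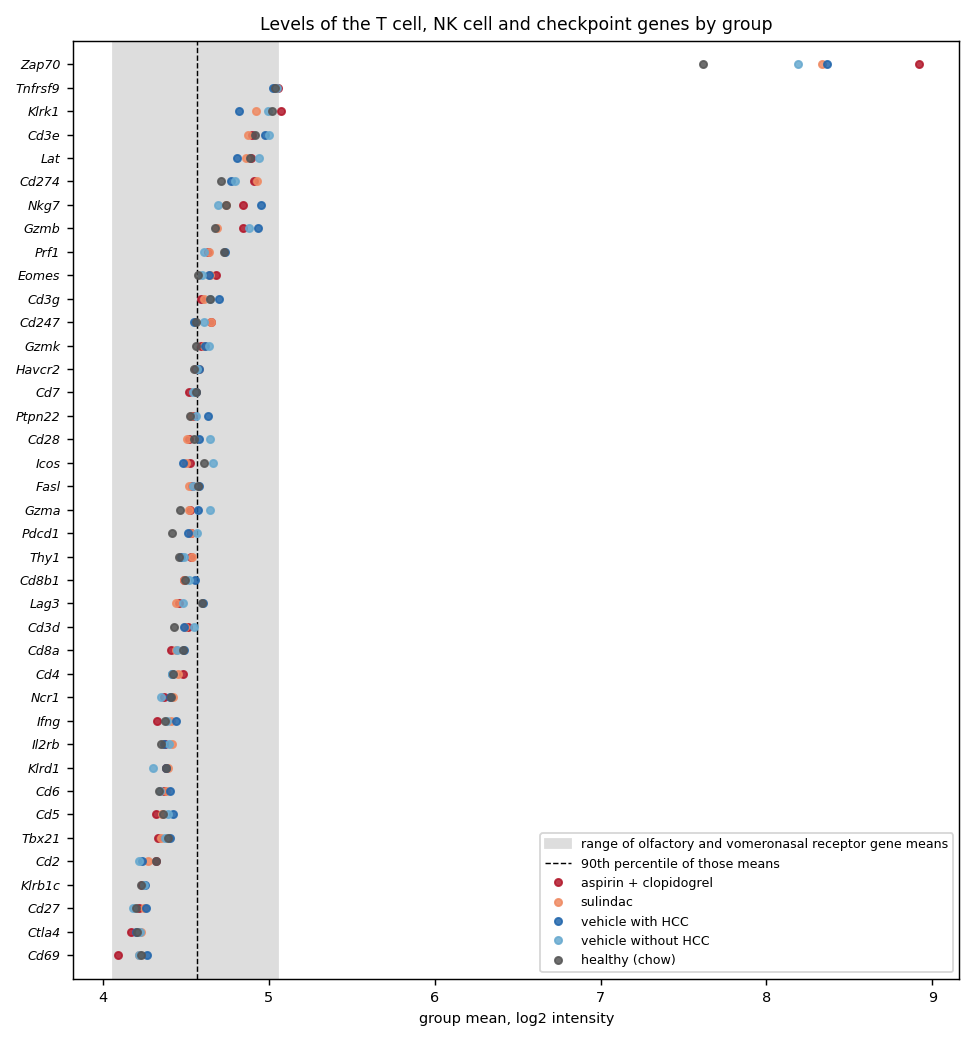
Mean log2 intensity of each of the 39 genes in the 5 groups of mice (points), with the range of the means of 76 olfactory and vomeronasal receptor genes (grey) and their 90th percentile (dashed line). All genes except Zap70 lie inside or at the edge of the grey range in every group, and the group means of each such gene lie close together.

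The T cell receptor complex was represented by Cd3d, Cd3e, Cd3g and Cd247, which encode its signalling chains. Cd3e had lowest, median and highest values of 4.68, 4.93 and 5.11 in aspirin with clopidogrel livers and of 4.76, 4.88 and 4.97 in sulindac livers. Cd3e values were 4.89, 4.97, 5.03 and 5.03 in vehicle livers with HCC, 4.96, 4.99, 5.02, 5.02 and 5.04 in those without HCC and 4.73, 4.92, 4.93, 5.00 and 5.03 in healthy livers. Values of all groups overlapped, and the highest and lowest of the 30 values both came from aspirin with clopidogrel livers. Group means lay between 4.43 (healthy) and 4.55 (vehicle without HCC) for Cd3d, between 4.59 (aspirin with clopidogrel) and 4.70 (vehicle with HCC) for Cd3g, and between 4.55 (vehicle with HCC) and 4.65 (aspirin with clopidogrel) for Cd247. The chains, which are present together in the receptor on T cells, did not all vary in the same direction across livers. Once group means were removed, Pearson's r over 30 mice was -0.40 between Cd3d and Cd3e, -0.29 between Cd3e and Cd3g, and 0.40 between Cd3d and Cd3g, each gene measured on the same arrays.

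The coreceptor genes Cd4, Cd8a and Cd8b1 all lay near background. The Cd4 signal had a lowest, median and highest value of 4.38, 4.48 and 4.61 in aspirin with clopidogrel livers, and of 4.30, 4.45 and 4.64 in sulindac livers. The vehicle livers measured 4.34, 4.42, 4.44 and 4.48 with HCC and 4.34, 4.37, 4.43, 4.48 and 4.48 without HCC for Cd4, and healthy livers measured 4.34, 4.35, 4.45, 4.45 and 4.51. Sulindac livers held both the lowest and the highest Cd4 value. For Cd8a the lowest, median and highest values were 4.28, 4.43 and 4.52 with aspirin and clopidogrel and 4.33, 4.47 and 4.54 with sulindac. Vehicle livers reached Cd8a values of 4.38, 4.46, 4.53 and 4.58 with HCC and of 4.32, 4.36, 4.45, 4.52 and 4.60 without HCC, against 4.41, 4.42, 4.46, 4.51 and 4.63 in healthy livers. Cd4 and Cd8a values overlapped between the groups of each comparison. Cd8b1, which encodes the partner chain of CD8, had group means between 4.49 (sulindac) and 4.56 (vehicle with HCC). Across mice, deviations from the group means of Cd8a and Cd8b1 had a Pearson's r of 0.27 (n = 30 livers).

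Genes of other T cell surface proteins, Cd2, Cd5, Cd6, Cd7 and Thy1, were near background without exception. Cd2 encodes an adhesion molecule, and Cd5 and Cd6 encode receptors that modulate T cell receptor signals. Their group means ranged from 4.22 (vehicle without HCC) to 4.32 (aspirin with clopidogrel) for Cd2, from 4.32 (aspirin with clopidogrel) to 4.42 (vehicle with HCC) for Cd5, and from 4.34 (healthy) to 4.40 (vehicle with HCC) for Cd6. Those of Cd7 and Thy1 ranged from 4.52 (aspirin with clopidogrel) to 4.56 (vehicle with HCC) and from 4.46 (healthy) to 4.54 (sulindac).

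Among costimulatory receptor genes, Cd27, Cd28 and Icos were near background and Tnfrsf9, which encodes 4-1BB, was just below the highest receptor gene. Icos had lowest, median and highest values of 4.39, 4.52 and 4.62 in aspirin with clopidogrel livers and of 4.32, 4.53 and 4.65 in sulindac livers. Icos values were 4.35, 4.44, 4.46 and 4.68 in vehicle livers with HCC, 4.61, 4.63, 4.66, 4.66 and 4.78 in those without HCC and 4.43, 4.49, 4.57, 4.73 and 4.86 in healthy livers. Vehicle livers without HCC lay in the upper part of the Icos range, and 3 of the 4 livers with HCC lay below all of them. The Tnfrsf9 signal had a lowest, median and highest value of 4.91, 5.06 and 5.19 in aspirin with clopidogrel livers, and of 4.91, 5.00 and 5.29 in sulindac livers. The vehicle livers measured 4.91, 4.98, 5.08 and 5.12 with HCC and 4.94, 5.04, 5.05, 5.11 and 5.11 without HCC for Tnfrsf9, and healthy livers measured 4.91, 4.93, 5.02, 5.09 and 5.25. Its group means lay close together, from 5.03 (vehicle with HCC) to 5.06 (aspirin with clopidogrel). Cd27 and Cd28 had group means between 4.18 (vehicle without HCC) and 4.26 (vehicle with HCC) and between 4.51 (sulindac) and 4.65 (vehicle without HCC).

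Zap70, which encodes a kinase that binds phosphorylated CD3 chains, was the brightest of these genes relative to background and the most variable. For Zap70 the lowest, median and highest values were 7.80, 9.22 and 9.48 with aspirin and clopidogrel and 7.33, 8.52 and 8.95 with sulindac. Vehicle livers reached Zap70 values of 8.12, 8.16, 8.28 and 8.89 with HCC and of 7.72, 7.82, 8.37, 8.43 and 8.63 without HCC, against 6.96, 7.08, 7.69, 7.97 and 8.38 in healthy livers. Healthy livers were low, Hlth_1798 and Hlth_1807 lowest of all, and 4 of the 6 aspirin with clopidogrel livers were above the highest vehicle liver; every pair of groups overlapped. The SD between mice of 1 group was 0.55, against a median of 0.11 for the 39 genes. With group means removed, r of its single probe set over 30 mice lay between -0.33 (Cd3e) and 0.44 (Eomes, Spearman's rho 0.42) for the other 38 genes. It was 0.31 with Cd3d, 0.09 with Cd3g, 0.21 with Cd4, 0.06 with Cd8a and 0.19 with Lat. Among leukocyte genes that many immune cells share, r with Zap70 lay between -0.12 (Coro1a and Cd52) and 0.14 (Rac2), and it was -0.01 with Ptprc, which encodes CD45. Over all genes, those with the highest r, chosen after their values were seen, were Slc26a1 (0.85), Hgd (0.81), Nnmt (0.80), Rdh5 (0.78), Apol9a (0.78) and Mrpl27 (0.77). Slc26a1 encodes a sulfate transporter, and Hgd, Nnmt and Rdh5 encode metabolic enzymes. For the hepatocyte genes named above, r with Zap70 lay between -0.21 (Apoa1) and 0.48 (Cps1), and it was 0.08 with Alb. Which transcript the probe set measured in liver was not tested.

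Lat, which encodes the adaptor phosphorylated by ZAP-70, and Ptpn22, which encodes a phosphatase of the same pathway, had no such level. Lat had lowest, median and highest values of 4.79, 4.89 and 5.02 in aspirin with clopidogrel livers and of 4.64, 4.88 and 5.22 in sulindac livers. Lat values were 4.62, 4.79, 4.90 and 4.95 in vehicle livers with HCC, 4.66, 4.84, 4.97, 5.11 and 5.13 in those without HCC and 4.74, 4.83, 4.88, 4.94 and 5.03 in healthy livers. The lowest value was that of a vehicle liver with HCC and the highest that of a sulindac liver, and all groups overlapped. Ptpn22 lay near background, with group means between 4.53 (healthy) and 4.64 (vehicle with HCC).

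The cytotoxic effector genes were Prf1 (perforin), Gzma, Gzmb and Gzmk (granzymes), Nkg7 (a granule protein), Fasl (a death ligand) and Ifng (interferon-gamma). The Gzmb signal had a lowest, median and highest value of 4.64, 4.83 and 5.16 in aspirin with clopidogrel livers, and of 4.46, 4.70 and 5.02 in sulindac livers. The vehicle livers measured 4.65, 4.70, 4.83 and 5.57 with HCC and 4.73, 4.84, 4.89, 4.91 and 5.03 without HCC for Gzmb, and healthy livers measured 4.39, 4.70, 4.74, 4.74 and 4.80. A vehicle liver with HCC was highest for Gzmb and a healthy liver lowest. For Nkg7 the lowest, median and highest values were 4.81, 4.82 and 4.95 with aspirin and clopidogrel and 4.56, 4.74 and 4.94 with sulindac. Vehicle livers reached Nkg7 values of 4.66, 4.72, 4.92 and 5.51 with HCC and of 4.54, 4.66, 4.72, 4.76 and 4.79 without HCC, against 4.61, 4.66, 4.76, 4.77 and 4.91 in healthy livers. Both genes had their highest value in the same mouse, Veh_high_2088, which stood well apart from the other 29. With group means removed, r between Gzmb and Nkg7 was 0.62 over 30 mice and 0.20 without Veh_high_2088, which was singled out after its values were seen. Gzma had lowest, median and highest values of 4.33, 4.50 and 4.73 in aspirin with clopidogrel livers and of 4.42, 4.53 and 4.64 in sulindac livers. Gzma values were 4.42, 4.49, 4.54 and 4.83 in vehicle livers with HCC, 4.45, 4.55, 4.59, 4.72 and 4.92 in those without HCC and 4.32, 4.38, 4.49, 4.57 and 4.58 in healthy livers. The same mouse had the highest Gzma of the vehicle livers with HCC, and Veh_low_2091 had the highest of all. Ccl5 and Ptprc are given here after their values were seen. In Veh_high_2088 the chemokine gene Ccl5, expressed by T and NK cells and by other cells, was also highest of all 30 mice, at 8.56, against 6.41, 6.68 and 7.0 in the other vehicle livers with HCC. Ptprc was 8.82 in Veh_high_2088 and between 8.12 and 8.52 in the other 3.

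Ifng lay near background in every group. The Ifng signal had a lowest, median and highest value of 4.23, 4.32 and 4.42 in aspirin with clopidogrel livers, and of 4.32, 4.43 and 4.53 in sulindac livers. The vehicle livers measured 4.36, 4.43, 4.44 and 4.53 with HCC and 4.30, 4.35, 4.37, 4.40 and 4.50 without HCC for Ifng, and healthy livers measured 4.34, 4.36, 4.36, 4.41 and 4.41. Aspirin with clopidogrel livers had the lowest median in this narrow range and overlapped each other group. Their highest value, 4.42 in AspClo_63, lay above every healthy liver. Prf1, Gzmk and Fasl had group means between 4.61 (vehicle without HCC) and 4.73 (vehicle with HCC), between 4.56 (healthy) and 4.64 (vehicle without HCC), and between 4.52 (sulindac) and 4.58 (vehicle with HCC).

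Of the NK cell receptor genes, Klrd1, Klrb1c and Ncr1 were near background. They encode CD94, NK1.1 and NKp46. For Ncr1 the lowest, median and highest values were 4.29, 4.37 and 4.43 with aspirin and clopidogrel and 4.28, 4.42 and 4.60 with sulindac. Vehicle livers reached Ncr1 values of 4.38, 4.38, 4.40 and 4.47 with HCC and of 4.31, 4.33, 4.35, 4.37 and 4.39 without HCC, against 4.34, 4.41, 4.41, 4.42 and 4.49 in healthy livers. Sulindac livers held both the lowest and the highest Ncr1 value, and no group stood apart. Klrb1c had group means between 4.23 (healthy) and 4.25 (vehicle with HCC), and Klrd1 between 4.31 (vehicle without HCC) and 4.40 (sulindac). Klrk1 encodes NKG2D, which NK cells and CD8 T cells carry. Klrk1 had lowest, median and highest values of 4.71, 5.12 and 5.37 in aspirin with clopidogrel livers and of 4.72, 4.95 and 5.10 in sulindac livers. Klrk1 values were 4.72, 4.73, 4.86 and 4.98 in vehicle livers with HCC, 4.75, 4.94, 4.96, 5.04 and 5.28 in those without HCC and 4.77, 4.82, 4.86, 4.98 and 5.66 in healthy livers. The highest value was that of a healthy liver, Hlth_1798, 1 of the 4 arrays that lay nearer the other group. This mouse also had the highest Ptprc of all 30, 9.71, while the other healthy livers had 7.05, 7.24, 7.61 and 9.06, and its Ccl5 was 8.34, against 4.80 to 6.70 in those livers. The transcription factor genes Tbx21 and Eomes, which direct cytotoxic and NK cell programmes, had group means between 4.33 (aspirin with clopidogrel) and 4.40 (vehicle with HCC) and between 4.57 (healthy) and 4.68 (aspirin with clopidogrel).

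Cd69, an early activation marker that also retains lymphocytes in tissue, had the lowest mean of the 39 genes. The Cd69 signal had a lowest, median and highest value of 4.04, 4.07 and 4.20 in aspirin with clopidogrel livers, and of 4.16, 4.22 and 4.26 in sulindac livers. The vehicle livers measured 4.17, 4.28, 4.30 and 4.32 with HCC and 4.14, 4.16, 4.25, 4.26 and 4.29 without HCC for Cd69, and healthy livers measured 4.16, 4.22, 4.22, 4.28 and 4.28. Each of the 6 aspirin with clopidogrel livers was below the mean of the vehicle livers, and 4 of the 6 were below the lowest vehicle liver. The remaining 2, AspClo_61 and AspClo_62, lay above the lowest vehicle liver, and AspClo_61 lay below every sulindac and healthy liver. Il2rb, which encodes a chain of the receptors for interleukins 2 and 15, had group means between 4.35 (healthy) and 4.42 (sulindac).

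The checkpoint genes encode PD-1 (Pdcd1), LAG-3 (Lag3), TIM-3 (Havcr2), CTLA-4 (Ctla4) and PD-L1 (Cd274). For Pdcd1 the lowest, median and highest values were 4.41, 4.52 and 4.66 with aspirin and clopidogrel and 4.41, 4.54 and 4.69 with sulindac. Vehicle livers reached Pdcd1 values of 4.47, 4.49, 4.53 and 4.56 with HCC and of 4.39, 4.53, 4.53, 4.65 and 4.72 without HCC, against 4.34, 4.36, 4.38, 4.49 and 4.52 in healthy livers. Healthy livers lay low in the range of Pdcd1, with 3 of 5 below every vehicle liver. Lag3 had lowest, median and highest values of 4.33, 4.46 and 4.60 in aspirin with clopidogrel livers and of 4.38, 4.44 and 4.54 in sulindac livers. Lag3 values were 4.53, 4.55, 4.60 and 4.73 in vehicle livers with HCC, 4.41, 4.43, 4.48, 4.53 and 4.57 in those without HCC and 4.51, 4.51, 4.55, 4.69 and 4.75 in healthy livers. For Lag3 healthy livers and vehicle livers with HCC lay higher and overlapped the rest. The Ctla4 signal had a lowest, median and highest value of 4.12, 4.16 and 4.22 in aspirin with clopidogrel livers, and of 4.10, 4.24 and 4.32 in sulindac livers. The vehicle livers measured 4.13, 4.15, 4.16 and 4.36 with HCC and 4.14, 4.23, 4.24, 4.25 and 4.27 without HCC for Ctla4, and healthy livers measured 4.11, 4.12, 4.21, 4.28 and 4.31. The groups overlapped for Ctla4, which was highest in a vehicle liver with HCC. For Cd274 the lowest, median and highest values were 4.64, 4.98 and 5.08 with aspirin and clopidogrel and 4.73, 4.91 and 5.17 with sulindac. Vehicle livers reached Cd274 values of 4.60, 4.70, 4.70 and 5.10 with HCC and of 4.56, 4.80, 4.84, 4.89 and 4.89 without HCC, against 4.55, 4.67, 4.71, 4.72 and 4.90 in healthy livers. Cd274 was the checkpoint gene that varied most between mice of 1 group, with an SD of 0.16. Havcr2 was just above the near-background limit, with group means between 4.55 (healthy) and 4.58 (vehicle with HCC).

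**Figure D2:**
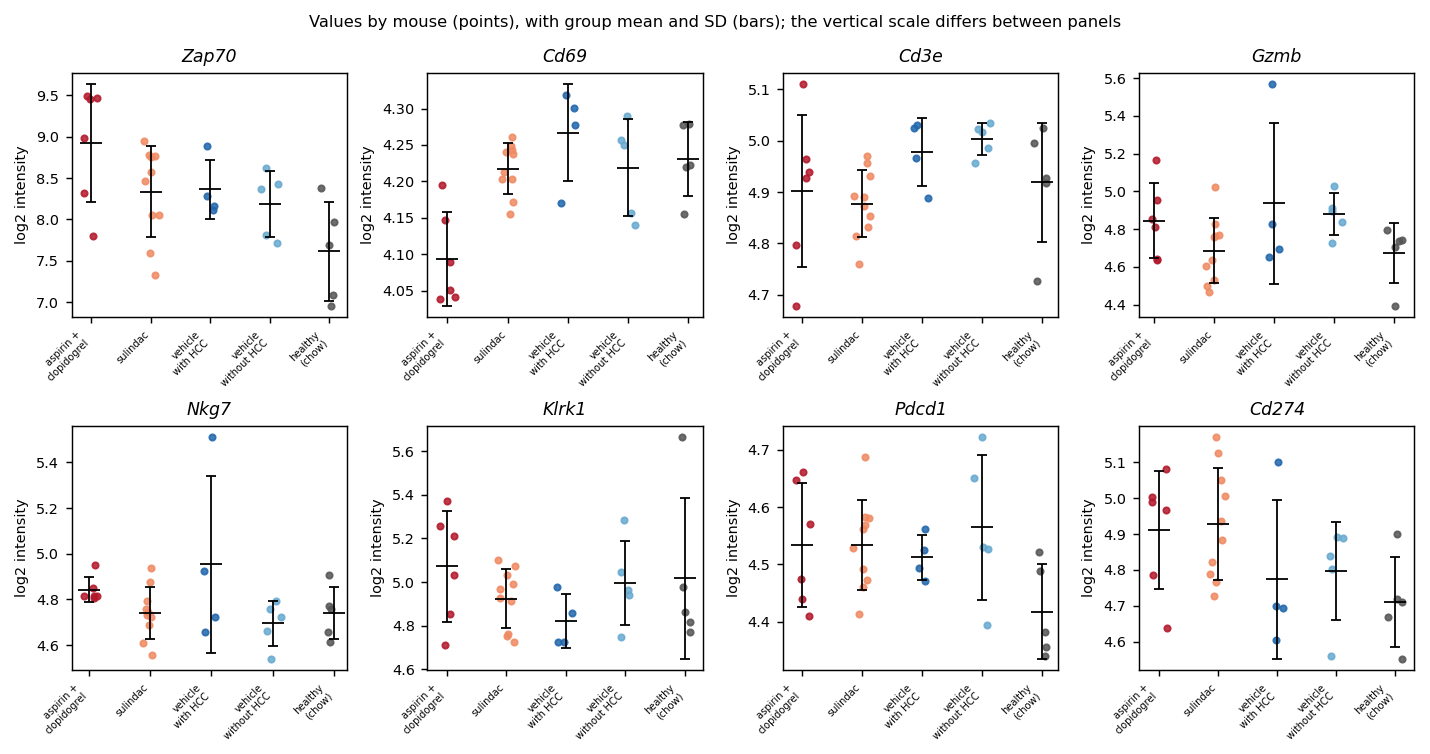
Log2 intensity of 8 genes in each mouse (points), with the mean and SD of each group (black). Vertical scales differ between panels. For Cd69, 4 of the 6 aspirin with clopidogrel livers lie below every other mouse, and single mice set the highest values of Gzmb, Nkg7 and Klrk1.

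The spread between mice gave a further measure of whether a probe set carried signal. Receptor genes had a median within-group SD of 0.08, with 0.10 as the 90th percentile and 0.15 as the highest. Of the 39 immune genes 21 exceeded that percentile and 6 exceeded the highest receptor gene, namely Zap70, Klrk1, Gzmb, Nkg7, Cd274 and Lat. Leaving out each of the 30 mice in turn, which was added after the values were seen, kept Zap70, Klrk1 and Gzmb above the highest receptor gene every time. Without Veh_high_2088 the SD was 0.104 for Nkg7, 0.144 for Cd274 and 0.147 for Lat, against 0.148 for the highest receptor gene, so these 3 were no longer above it. Lat was above it in only 18 of the 30 settings. The median SD was 0.11 for the 39 genes and 0.12 for all genes, both above the 90th percentile of the receptor genes. The count above that percentile therefore does not set the 39 genes apart from genes in general. Pearson's r of deviations from group means over 30 mice had a median of 0.08 over the 741 pairs of the 39 genes, and of 0.03 over the 2850 pairs of receptor genes. For scale, 95% of the pairs lay between -0.38 and 0.50 for the immune genes and between -0.37 and 0.42 for receptor genes.

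**Figure D3:**
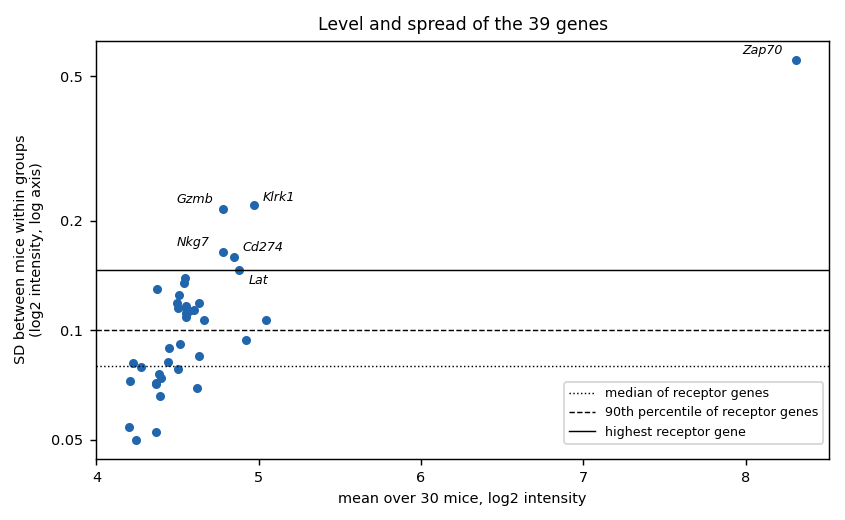
SD between mice within groups (log2 intensity, log axis) against mean log2 intensity over 30 mice for the 39 genes, with the median, 90th percentile and highest SD of the 76 receptor genes as lines. Most genes lie among the receptor genes in both measures; Klrk1, Gzmb, Nkg7, Cd274 and Lat, like Zap70, lie above the highest receptor SD.

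The diet comparison asked how vehicle livers on CD-HFD differ from healthy livers on chow. None of the 39 genes passed an adjusted p of 0.05 in limma, while 0.0117% of all genes did. Pdcd1 and Zap70 had an unadjusted p under 0.05, both higher in vehicle livers, and so had 6.73% of all genes. Pdcd1 averaged 4.54 ± 0.10 (SD, n = 9) in vehicle livers and 4.42 ± 0.08 (n = 5) in healthy livers, a difference of 0.12 (SE 0.052, adjusted p = 0.665). Zap70 averaged 8.27 ± 0.37 in vehicle livers and 7.62 ± 0.60 in healthy livers, a difference of 0.65 (SE 0.30, adjusted p = 0.708), and all 9 vehicle livers were above the healthy mean. With the 4 arrays that lay nearer the other group left out, these differences were smaller, 0.08 and 0.40 (adjusted p = 0.599 and 0.629). Still none of the 39 genes passed, against 5.61% of all genes. Gzmb, next by p, differed by 0.23 (SE 0.12, adjusted p = 0.762), and by 0.15 without Veh_high_2088. In all 25 of the 39 genes were higher in vehicle livers, against 51.8% of all genes, with a median change of 0.022 against 0.003 for all genes.

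In the second comparison, non-tumoral livers of vehicle mice that had HCC were set against livers of vehicle mice that had none. The mice with HCC are all labelled as having fibrosis too, so HCC and fibrosis cannot be told apart here. Again none of the 39 genes passed the adjusted test, against 0.0877% of all genes, and Nkg7, Icos and Lag3 had an unadjusted p under 0.05, against 8.87% of all genes. Nkg7 averaged 4.95 ± 0.39 (n = 4) with HCC and 4.70 ± 0.10 (n = 5) without, a difference of 0.26 (SE 0.11, adjusted p = 0.445) that was 0.07 without Veh_high_2088 (adjusted p = 0.939). Icos averaged 4.48 ± 0.14 with HCC and 4.67 ± 0.07 without, a difference of -0.18 (SE 0.077, adjusted p = 0.458). Measured on its probe set with the largest variance, the Icos difference was -0.0064. Lag3 averaged 4.60 ± 0.09 with HCC and 4.48 ± 0.06 without, a difference of 0.12 (SE 0.055, adjusted p = 0.509), and all 4 livers with HCC were above the mean of those without. It was 0.079 without Veh_high_2088. With the 4 arrays left out, Nkg7, Icos and Lag3 differed by 0.26, -0.21 and 0.12, and none of the 39 genes passed, against 0.0819% of all genes. A total of 24 of the 39 genes were higher with HCC, against 46.6% of all genes, and the median change was 0.021.

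The sulindac comparison asked how livers of mice given prophylactic sulindac on CD-HFD differ from vehicle livers. No member of the 39 passed, against 0.199% of all genes, and 4 had an unadjusted p under 0.05, all lower in sulindac livers, against 10.4% of all genes. Cd3e averaged 4.88 ± 0.07 (n = 10) in sulindac livers and 4.99 ± 0.05 (n = 9) in vehicle livers, a difference of -0.11 (SE 0.044, adjusted p = 0.317), and all 10 sulindac livers were below the vehicle mean. Cd28, the T cell costimulatory receptor gene, likewise had all 10 sulindac livers below the vehicle mean, with a difference of -0.11 (SE 0.050, adjusted p = 0.438). Lag3 averaged 4.44 ± 0.05 in sulindac livers and 4.54 ± 0.10 in vehicle livers, a difference of -0.09 (SE 0.037, adjusted p = 0.359). The Lag3 difference was -0.16 against vehicle livers with HCC and -0.04 against vehicle livers without HCC. Gzmb averaged 4.69 ± 0.17 in sulindac livers and 4.91 ± 0.27 in vehicle livers, a difference of -0.22 (SE 0.096, adjusted p = 0.410), which was -0.14 without Veh_high_2088. With the 4 arrays left out, Lag3 and Gzmb differed by -0.11 and -0.23, and again none of the 39 genes passed, against 0.836% of all genes. By function, 6 of 7 cytotoxic effector, 3 of 4 T cell receptor complex and 3 of 4 costimulatory receptor genes were lower in sulindac livers. So were 2 of 3 coreceptor and 2 of 3 proximal signalling genes. In contrast, 4 of 5 T cell surface, 3 of 4 NK receptor and 3 of 5 checkpoint genes were higher, and none passed. Over the 39 genes 17 were higher, or 11 where each array was centred on its median, against 53.2% of all genes. The median change was -0.0073, against 0.0051 for all genes. The same vehicle mice serve here, in the diet comparison and in the next comparison.

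The aspirin with clopidogrel comparison gave the 1 call among the 39 genes, a lower Cd69. The adjusted test passed for 1.96% of all genes in this comparison, and an unadjusted p under 0.05 was found for 14.6% of all genes and for 5 of the 39. Cd69 averaged 4.09 ± 0.06 (n = 6) in aspirin with clopidogrel livers and 4.24 ± 0.07 (n = 9) in vehicle livers, a difference of -0.15 (SE 0.032, adjusted p = 0.0149), or 0.904 times the intensity of vehicle livers. All of these values are near background: the mean of the highest receptor gene corresponds to 33.3 on the linear scale, while Cd69 lay between 16.4 and 19.9 in these 15 mice. In the same comparison the 76 receptor genes changed by between -0.12 and 0.14. None of them was called, and 9 (11.8%) had an unadjusted p under 0.05. Of the 6200 genes near background, 19 (0.306%) were called, 7 of them lower. With the 4 arrays left out, 2 of them vehicle livers, the Cd69 difference was -0.16 (adjusted p = 0.00667), and 4.79% of all genes passed. The call was lost without AspClo_58 (adjusted p = 0.0543), against vehicle livers without HCC alone (-0.12, adjusted p = 0.0921), and in a fit of only the groups compared (adjusted p = 0.106).

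Zap70 averaged 8.92 ± 0.71 in aspirin with clopidogrel livers and 8.27 ± 0.37 in vehicle livers, a difference of 0.65 (SE 0.28, adjusted p = 0.261), and 5 of 6 livers were above the vehicle mean. Ifng averaged 4.32 ± 0.07 in aspirin with clopidogrel livers and 4.41 ± 0.07 in vehicle livers, a difference of -0.08 (SE 0.037, adjusted p = 0.282). The other genes with an unadjusted p under 0.05 were Cd2, which differed by 0.09 (adjusted p = 0.323), and Cd5, which differed by -0.09 (adjusted p = 0.293). Of the 7 cytotoxic effector genes 6 were lower, and of the 5 checkpoint genes 4 were lower, with none passing. The NK receptor and costimulatory receptor genes were split, with 2 of 4 lower in each, and 1 of 3 proximal signalling genes was lower. Of the 39 genes 13 were higher and 26 lower, while 50.8% of all genes were higher, with a median change of -0.017 against 0.0017 for all genes. Among 6 genes that leukocytes in general express, 5 were lower and none passed, and their summed linear intensity ranged from 678 to 2240 in aspirin with clopidogrel livers, from 1053 to 2449 in vehicle livers with HCC and from 1091 to 2179 in those without HCC. All 6 Kupffer cell genes were higher in aspirin with clopidogrel livers, with a median change of 0.75, and none passed. The part of either list in the Cd69 result was not tested.

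The last comparison set the drug groups against each other, aspirin with clopidogrel minus sulindac. None of the 39 genes passed, against 0.877% of all genes, and Cd69, Ifng and Zap70 had an unadjusted p under 0.05, against 10.8% of all genes. Cd69 averaged 4.09 ± 0.06 (n = 6) in aspirin with clopidogrel livers and 4.22 ± 0.03 (n = 10) in sulindac livers, a difference of -0.12 (SE 0.031, adjusted p = 0.0529), and 5 of 6 livers were below the lowest sulindac liver. It passed without AspClo_62 (adjusted p = 0.0173). Ifng averaged 4.32 ± 0.07 in aspirin with clopidogrel livers and 4.41 ± 0.07 in sulindac livers, a difference of -0.09 (SE 0.037, adjusted p = 0.332). Zap70 averaged 8.92 ± 0.71 in aspirin with clopidogrel livers and 8.33 ± 0.55 in sulindac livers, a difference of 0.59 (SE 0.27, adjusted p = 0.430). This comparison shares the aspirin with clopidogrel mice with the one before it, so the values of Cd69, Ifng and Zap70 are not a second measurement. Of the 39 genes 19 were higher in aspirin with clopidogrel livers, or 25 where each array was centred on its median, against 48.4% of all genes. The median change was -0.00089, against -0.0028 for all genes.

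**Figure D4:**
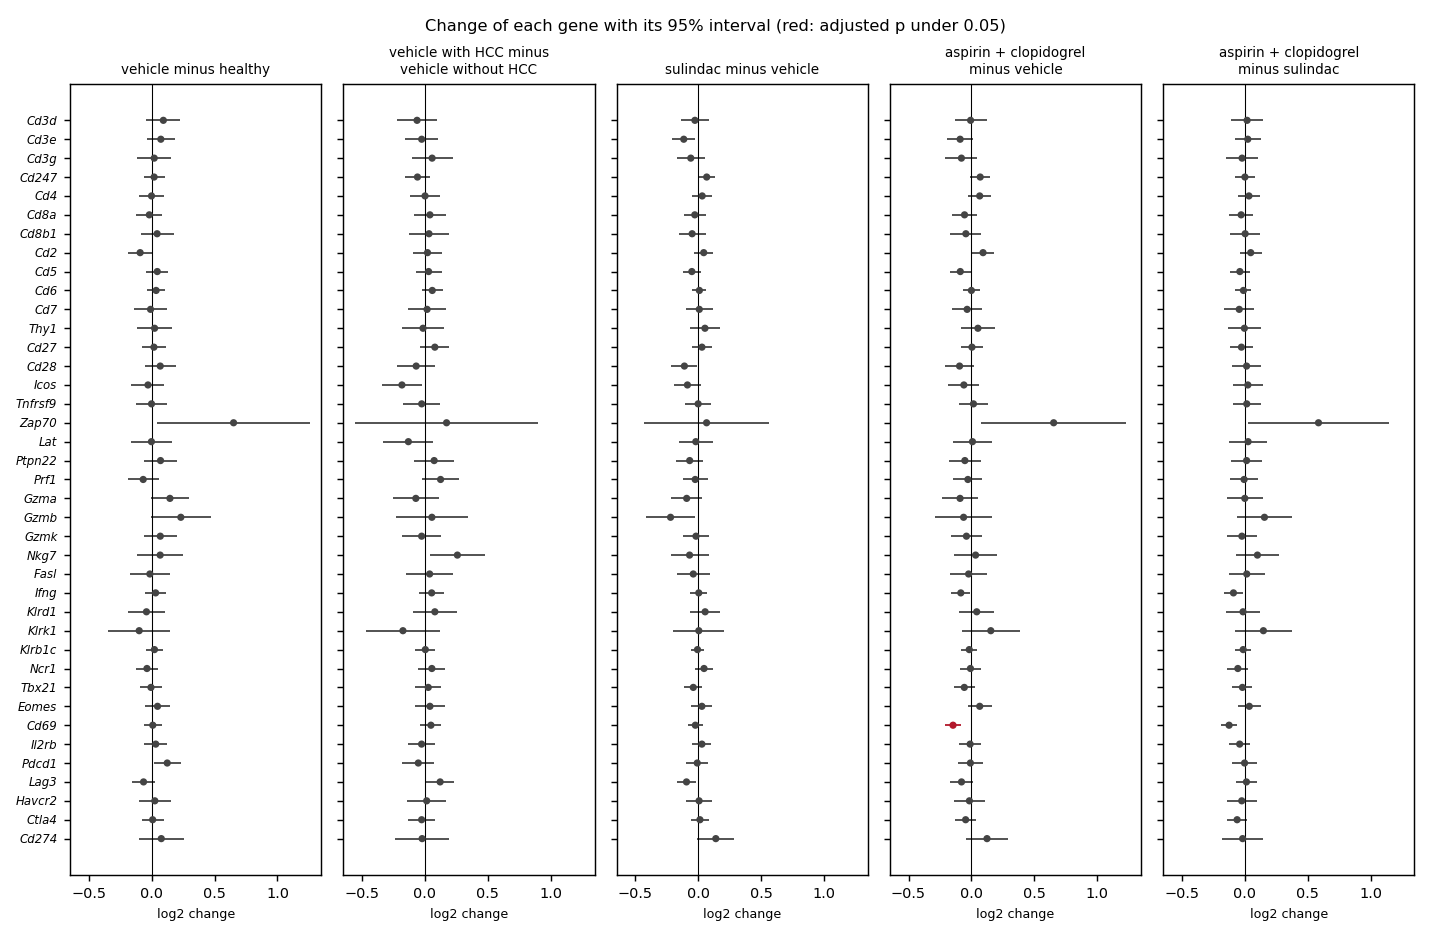
Log2 change of each of the 39 genes (points) with its 95% interval (lines) in the 5 comparisons, from the fit over all genes. Cd69 in aspirin with clopidogrel against vehicle livers is the only gene with an adjusted p under 0.05 (red), and the intervals of Zap70 are the widest.

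Across the 5 comparisons the data bound most changes closely on the array scale. For each of the 38 genes other than Zap70 the 95% interval of the log2 change lay within 0.5 of 0 in every comparison, with extremes of -0.47 (Klrk1, with against without HCC) and 0.48 (Nkg7, with against without HCC). These intervals take a single estimate of spread per gene over all groups. In vehicle livers with HCC the SD was 0.39 for Nkg7 and 0.43 for Gzmb, against within-group SDs over all groups of 0.16 and 0.22. Intervals of these genes that use those livers may therefore be too narrow. The Zap70 intervals reached 1.26 in vehicle against healthy livers and 1.23 in aspirin with clopidogrel against vehicle livers. None of the 39 genes had groups that did not overlap in any comparison. Of all genes, the groups did not overlap for 0.117% in vehicle against healthy livers, 3% with against without HCC, 0.0702% for sulindac against vehicle, 0.392% for aspirin with clopidogrel against vehicle and 0.328% between the drug groups. Signal near the lower end of the array compresses differences, so an interval here bounds the change in probe set signal, not in transcript number.

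Of a list of 47 other T and NK cell genes, 38 had a value. Of these, 23 lay near background and 6 lay above the highest receptor gene: Themis, Lcp2, Ccl5, Fyb, Gimap4 and S1pr1. Of the 6, Lcp2, Fyb, Gimap4 and S1pr1 are also expressed by other blood or endothelial cells, and Ccl5 is also expressed by other cells. None of the 38 passed in any comparison of all mice. Themis, which encodes a T cell selection protein, had lowest, median and highest values of 5.07, 5.12 and 5.47 in aspirin with clopidogrel livers and of 5.34, 6.18 and 7.23 in sulindac livers. Vehicle livers had 5.43, 6.09, 6.81 and 8.15 with HCC and 4.66, 5.04, 5.73, 6.19 and 6.37 without, and healthy livers 5.15, 5.17, 5.28, 5.42 and 6.94. The aspirin with clopidogrel livers were thus low and close together, and the vehicle livers with HCC lay far apart from each other. These values come from the brightest Themis probe set, with a mean of 5.85. The other Themis probe sets, with means of 4.70 and 4.39, lay below the highest receptor gene. Themis differed by -1.01 (SE 0.33, adjusted p = 0.173) between aspirin with clopidogrel and sulindac livers and by -0.88 (SE 0.34, adjusted p = 0.205) between aspirin with clopidogrel and vehicle livers. S1pr1, a receptor for lymphocyte exit that endothelium also expresses, differed by 0.61 (SE 0.21, adjusted p = 0.211) in aspirin with clopidogrel minus sulindac livers and by 0.62 (SE 0.22, adjusted p = 0.154) in aspirin with clopidogrel minus vehicle livers. With the 4 arrays left out, added for this list after its values were seen, Themis (-1.22, adjusted p = 0.0206) and S1pr1 (0.80, adjusted p = 0.0114) passed against vehicle livers, as did 4.79% of all genes. The vehicle livers left out, Veh_low_794 and Veh_low_1819, had the lowest Themis values of the vehicle livers, 4.66 and 5.04. Both lay below every aspirin with clopidogrel liver, so leaving them out widens the Themis difference and gives it no separate support. In vehicle against healthy livers Ccl5 (1.72, adjusted p = 0.0122), Fyb (1.09, adjusted p = 0.0348) and S1pr1 (-0.81, adjusted p = 0.0376) then passed, as did 5.61% of all genes. The 4 arrays were picked on this comparison, so its differences are in general widened by construction.

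Genes induced by interferon-gamma, the product of Ifng, were also examined. Of 9 such genes with a value, 8 lay above the highest receptor gene, and 1 lay near background. All 9 were higher in vehicle than in healthy livers, with a median change of 0.37, against 51.8% of all genes. All 9 were higher with HCC than without, with a median of 0.43, against 46.6% of all genes, and none passed the adjusted test in any comparison of all mice. The 6 general leukocyte genes and 6 Kupffer cell genes were also all higher in vehicle than in healthy livers, with medians of 0.29 and 0.23, and their part in the result was not tested. With against without HCC, 3 of the 6 leukocyte genes and 0 of the 6 Kupffer genes were higher. Without Veh_high_2088, a setting added for these lists after their values were seen, the interferon-gamma medians were 0.19 for vehicle against healthy livers and 0.060 with against without HCC, where 8 of 9 were higher. Without the 4 arrays that lay nearer the other group, the medians were 1.19 and 0.16. In vehicle against healthy livers 5 of the 9 then passed (Cxcl9, Cxcl10, Gbp2, H2-Aa and H2-Ab1), as did 4 of the 6 leukocyte genes and 5.61% of all genes. The 4 arrays were picked by their values in that comparison, so leaving them out in general widens its differences by construction. Cxcl9, which encodes a chemokine that attracts T and NK cells, differed by 1.14 (SE 0.41, adjusted p = 0.590) between vehicle and healthy livers. Their summed linear intensity ranged from 2397 to 5979 in vehicle livers with HCC, from 1563 to 3487 in vehicle livers without HCC and from 1320 to 3794 in healthy livers, so the groups overlapped. The leukocyte genes all lay above the highest receptor gene, and their summed intensity ranged from 581 to 3693 over the 5 healthy livers alone, a wider range than in any other group.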

How the data were processed

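The deposited series table holds linear intensity values of 45141 probe sets in 30 mice. The authors made them, per the submitters' processing notes and the design text, from the scanned arrays by RMA with quantile normalization, and the sources used here name no genome build. Probe sets were named by the platform annotation, with symbols updated through Entrez identifiers where these matched (28689 probe sets). Of all probe sets 28898 carried 1 symbol and 551 carried several, and those with several were not used. Values were taken to log2, without a further filter or pseudocount.

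Per gene the probe set with the highest mean was kept, which gave 17097 genes. A model with 5 group means was fitted over all genes with limma 3.58.1 in R 4.3.3 (25 residual and 2.37 prior degrees of freedom). All 9 vehicle mice weighed equally in the vehicle mean, p-values are two-sided, Benjamini-Hochberg adjustment ran over all genes, and the threshold was 0.05. The fit was tested on simulated data. The number of arrays limits the precision. Near background means a mean at or below the 90th percentile of the olfactory and vomeronasal receptor genes.

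Values by mouse are given for genes that passed the threshold, the 3 with the smallest p in each comparison, the 5 with the highest mean and 9 fixed by role. Genes outside the set come from the lists, at most 2 per list and comparison by smallest p, unless stated. The members, lists and alternatives were chosen with earlier results of these data known. The labels give 9 vehicle mice where the design text lists 4, and the labels were followed. No label tells whether mice of a group shared a cage or processing day.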

Additional observations from a re-analysis of the deposited data

Results flagged for a closer look

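Each of the 39 genes was examined in each of the 5 groups. In 12 of these 195 cases a single mouse stood apart from the rest of its group, and chance alone gives about 1 in 20. Among healthy livers, Cd3g was 4.838 in Hlth_1798, above the next at 4.636, and Klrk1 was 5.664 in the same mouse, above the next at 4.979. Hlth_1804 was lowest for Cd5, at 4.197 with the next at 4.378, and for Gzmb, at 4.393 with the next at 4.704. Among aspirin with clopidogrel livers, AspClo_64 was low for Cd28, at 4.175 with the next at 4.54, and high for Nkg7, at 4.952 with the next at 4.852. AspClo_62 was low for Cd6, at 4.30 with the next at 4.371. In the sulindac group Cd8b1 was 4.803 in Sulin_15, above the next at 4.543. Vehicle livers with HCC had Klrd1 at 4.524 in Veh_high_2088, above the next at 4.352, and Ctla4 at 4.364 in Veh_high_1831, above the next at 4.155. Vehicle livers without HCC had Prf1 at 4.884 in Veh_low_1810, above the next at 4.551, and Cd274 at 4.562 in Veh_low_2091, below the next at 4.803.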

How the results depend on the processing

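Over 41 alternative settings no result reversed its direction past a threshold. In aspirin with clopidogrel against vehicle livers the count of genes called was 0 with only the groups compared, with brighter genes only, which leaves out Cd69, and with vehicle livers without HCC alone. Leaving out 1 mouse at a time gave 0 to 1, with 0 only without AspClo_58. Cd69 kept its call in 14 of 15 such settings (adjusted p between 0.00396 and 0.0543) and in 8 of 10 others (adjusted p between 0.00667 and 0.106). Its change lay between -0.167 and -0.135 over the settings that leave out 1 mouse, and between -0.173 and -0.0774 over the others, -0.0774 being with a pseudocount of 16, which compresses low values. Between the drug groups the count was 1, in place of 0, with array weights, with an intensity trend and robust prior, and with the mean over probe sets, and leaving out 1 mouse at a time gave 0 to 1. With brighter genes only, which keeps 4 of the 39 genes, the median change was -0.025 for HCC, 0.085 for aspirin with clopidogrel against vehicle and 0.087 between the drug groups. The causes of these differences were not tested. No paired analysis was possible because replicate numbers are animal numbers that groups do not share. Signals at the level of the receptor genes limit what these probe sets can show.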
